A study of Mus musculus with 49 samples.

Results

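CT26 is a colon carcinoma line of BALB/c origin that grows as a tumour under the skin of BALB/c mice. The comparison described here is between tumours of mice given anti-PD-1 plus celecoxib and tumours of mice given anti-PD-1 alone, restricted to tumours whose response label is NR. The members were chosen by treatment and response label only, and they are 17 of the 49 sequenced tumours: 4 with the combination and 13 with anti-PD-1 alone. Treatment began on day 7 after tumour cell injection. All mice were BALB/c, and all tumours came from CT26 cells grown in culture before injection. The antibody was given at 200 µg per dose for 2 doses, celecoxib at 30 mg/kg daily, and the treatment course lasted 7 days. The other tumours are 12 labelled R with the combination, 4 labelled R with anti-PD-1 alone, 7 with celecoxib alone and 9 with vehicle, and every celecoxib and vehicle tumour carries the label NR. The labels do not define R and NR, they do not state that each tumour came from a different mouse, and they do not give a time of day for collection. They give day 7 in the tissue label and day 4 in the extraction protocol. The 4 combination tumours are the minority of the 16 that were given that treatment. Since separate mice are not stated, the p-values describe the spread among these tumours, which may be technical.

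PD-1 is an inhibitory receptor on activated T cells, and blocking it releases T cells from inhibition by PD-L1. Celecoxib inhibits cyclooxygenase-2, the inducible enzyme that starts the synthesis of prostaglandins from arachidonic acid. Prostaglandin E2 acts through receptors on myeloid cells and lymphocytes. The genes that separated the groups most belong to the circadian clock. In the clock, the activators BMAL1 (encoded by Arntl) and CLOCK bind E-box elements and drive the Per and Cry genes, whose proteins inhibit the activators. BMAL1 and CLOCK also drive Nr1d1 and Nr1d2, whose REV-ERB proteins repress Arntl, and the output factors Dbp, Tef and Hlf, which bind D-box elements in competition with the repressor Nfil3.

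RNA of whole dissected tumours was measured with 3′ end sequencing, so a change in the number of cells of a type and a change in RNA per cell cannot be told apart. Total counts ranged from 6003336 to 13671294 over the 17 libraries, with a median of 7670623, and from 6448635 to 9789479 in the combination group. The closest pair of libraries had a correlation of 0.984 across genes and differed by far more than sampling noise. Epithelial markers of the carcinoma were low: Cdx2 had no count in any of the 17 libraries, Cdx1 and Cldn7 had counts in 2 each, and the median of Epcam was 0.204 CPM (counts scaled to the library total). Krt20 ranged from 15.1 to 84 on the same scale, and Vim, a mesenchymal filament gene, from 3038 to 6000. Muscle RNA varied between tumours: anti-PD-1 replicates 3, 9 and 13 exceeded the limit set for skeletal muscle, and replicate 13 also the limit for fat, while no combination tumour exceeded any limit. Combination replicate 1 had a skeletal muscle list mean of 2.79 log2 CPM, against values from -0.38 to -0.11 in the other 3.

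Over 14247 genes, 4 rose in the combination tumours and 0 fell at an adjusted p under 0.05, which is 0.0281% of those tested (edgeR quasi-likelihood test, Benjamini-Hochberg adjustment). These were Dbp, Tef, Nr1d2 and Per3, all members of the clock list. At an unadjusted p under 0.05 there were 816 genes, 390 higher and 426 lower. The median log2 fold change over all tested genes was -0.03, with a median standard error of 0.25 per gene.

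**Figure D1:**
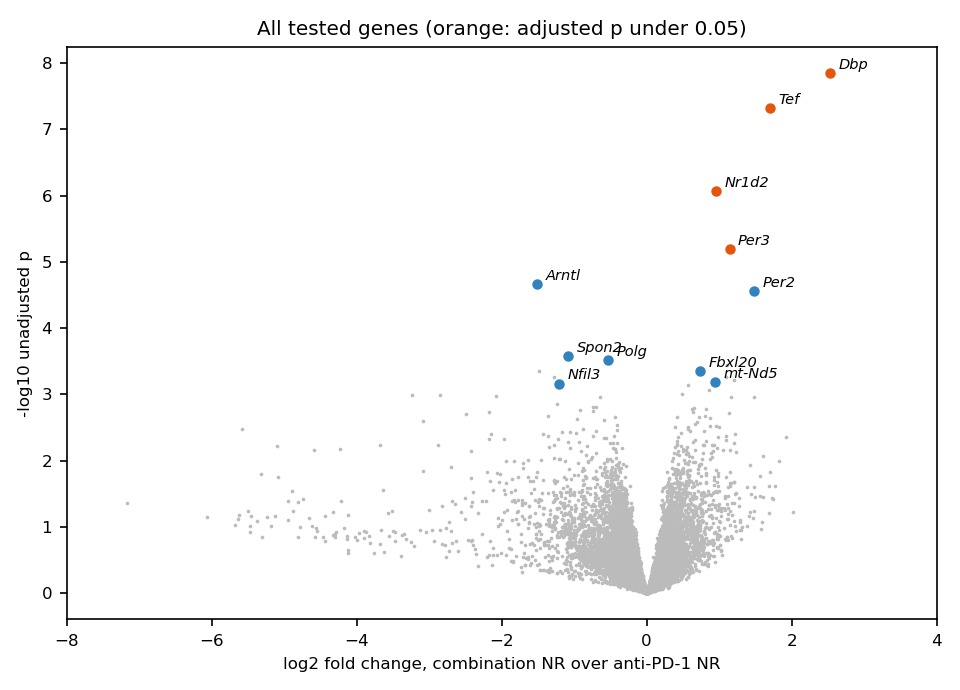
Log2 fold change of the combination over anti-PD-1 among NR tumours (horizontal axis) against -log10 of the unadjusted p (vertical axis), with 1 point per gene tested. The 4 orange genes, Dbp, Tef, Nr1d2 and Per3, passed the adjusted threshold, and the blue labelled genes did not.

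The promoters of these 4 genes are shown because the genes rose together and the clock acts through short promoter elements. Each window runs from 250 bases before to 50 bases after an annotated start, in RefSeq on GRCm38.p6. Letters in capitals match one of 3 motifs on either strand: the E-box CACGTG, the D-box TTATGNAA, or the nuclear receptor half-site AGGTCA. Tef has windows at both of its starts in the table.
Dbp (chr7:45704997-45705296, plus strand): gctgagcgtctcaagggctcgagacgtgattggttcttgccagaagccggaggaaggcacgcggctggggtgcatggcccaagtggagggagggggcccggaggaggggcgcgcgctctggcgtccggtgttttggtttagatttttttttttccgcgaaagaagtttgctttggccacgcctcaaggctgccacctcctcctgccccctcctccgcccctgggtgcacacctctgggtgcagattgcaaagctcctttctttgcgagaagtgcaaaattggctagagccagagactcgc
Tef, upstream start (chr15:81802423-81802722, plus strand): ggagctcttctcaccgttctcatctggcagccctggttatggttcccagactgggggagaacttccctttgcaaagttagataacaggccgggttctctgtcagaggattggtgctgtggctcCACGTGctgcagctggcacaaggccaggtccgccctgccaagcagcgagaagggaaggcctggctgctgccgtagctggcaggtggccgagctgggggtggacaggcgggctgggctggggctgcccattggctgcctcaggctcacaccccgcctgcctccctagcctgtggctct
Tef, downstream start (chr15:81811164-81811463, plus strand): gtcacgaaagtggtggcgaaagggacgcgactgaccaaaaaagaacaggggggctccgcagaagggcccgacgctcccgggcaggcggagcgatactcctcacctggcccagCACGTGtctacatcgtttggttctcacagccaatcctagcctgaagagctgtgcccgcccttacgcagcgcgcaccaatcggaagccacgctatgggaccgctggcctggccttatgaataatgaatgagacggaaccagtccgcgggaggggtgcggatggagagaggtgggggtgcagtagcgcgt
Nr1d2 (chr14:18239057-18239356, minus strand): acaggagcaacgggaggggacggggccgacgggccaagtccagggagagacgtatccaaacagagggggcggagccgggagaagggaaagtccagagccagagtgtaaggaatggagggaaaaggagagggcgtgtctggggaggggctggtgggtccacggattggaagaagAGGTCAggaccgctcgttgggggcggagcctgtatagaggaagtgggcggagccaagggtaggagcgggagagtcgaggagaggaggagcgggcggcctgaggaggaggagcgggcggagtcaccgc
Per3 (chr4:151044616-151044915, minus strand): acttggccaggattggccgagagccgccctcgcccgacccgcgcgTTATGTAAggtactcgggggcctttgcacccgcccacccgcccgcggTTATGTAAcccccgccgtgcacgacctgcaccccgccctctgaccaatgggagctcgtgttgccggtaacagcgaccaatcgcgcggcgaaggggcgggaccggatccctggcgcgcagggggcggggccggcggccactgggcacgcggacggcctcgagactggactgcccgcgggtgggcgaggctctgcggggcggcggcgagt

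Both Tef windows held 1 E-box, starting at base 124 and base 113 of the window. The Nr1d2 window held 1 half-site, starting at base 174. The Per3 window held 2 D-box matches, at bases 46 and 93, and the Dbp window held none of the 3 motifs. Over 32851 promoters of the same length, the E-box was in 7.15%, the D-box in 3.38% and the half-site in 16.3%. Among the 22 genes of the clock list, 17 had a promoter in the table, with the E-box in 5, the half-site in 5 and the D-box in 2. The D-box was first searched as TTATGNAAT, which was in 0.825% of promoters and in 0 of the 17 clock genes. The shorter form was taken up after the sequences had been read, so the Per3 matches depend on that choice.

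Dbp, a PAR domain transcription factor and a classical clock output, is encoded on chromosome 7. It was at 31.6, 96.0, 155 and 35.1 CPM, here scaled by TMM factors, in combination replicates 1 to 4, against a lowest value of 4.57, a median of 12.5 and a highest value of 25.8 in the 13 anti-PD-1 tumours. All 4 combination tumours lay above all 13, with replicates 2 and 3 the highest. Dbp rose 5.79-fold (95% interval 3.46 to 9.71), a log2 fold change of 2.53 ± 0.37 (SE, n = 4 and 13) with an edgeR adjusted p of 0.000201. The exact permutation test over the 17 tumours gave a two-sided, unadjusted p of 0.0008403, the smallest this design can give, and it was 1 of 17 such tests. Complete separation fixes that p at its minimum. The genes so tested were chosen with earlier results of these data known, so this p adds no support.

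Tef, the PAR domain paralogue of Dbp on chromosome 15, was at 79.0, 238, 161 and 112 CPM in the combination tumours. In the anti-PD-1 tumours it had a lowest value of 24.1, a median of 40.4 and a highest value of 85.8. The groups overlapped by 1 tumour, since anti-PD-1 replicate 7 lay above combination replicate 1. The log2 fold change of Tef was 1.70 ± 0.26 (SE, n = 4 and 13, edgeR adjusted p 0.000337), or 3.25-fold.

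Nr1d2 encodes REV-ERBβ, a nuclear receptor that represses Arntl. It was at 106, 129, 153 and 121 CPM with the combination, against 48.0, 59.2 and 97.9 as the lowest, median and highest values with anti-PD-1 alone. The groups did not overlap, and Nr1d2 rose by 0.96 ± 0.17 on the log2 scale (SE, n = 4 and 13, edgeR adjusted p 0.00408). Per3, a period gene whose protein takes part in inhibition of the activators, was at 39.6, 71.9, 106 and 55.9 CPM, against 18.9, 31.2 and 39.4. Its groups also did not overlap, although combination replicate 1 lay close to the highest anti-PD-1 tumour, replicate 12. Per3 rose by 1.14 ± 0.23 on the log2 scale (SE, n = 4 and 13, edgeR adjusted p 0.0228).

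**Figure D2:**
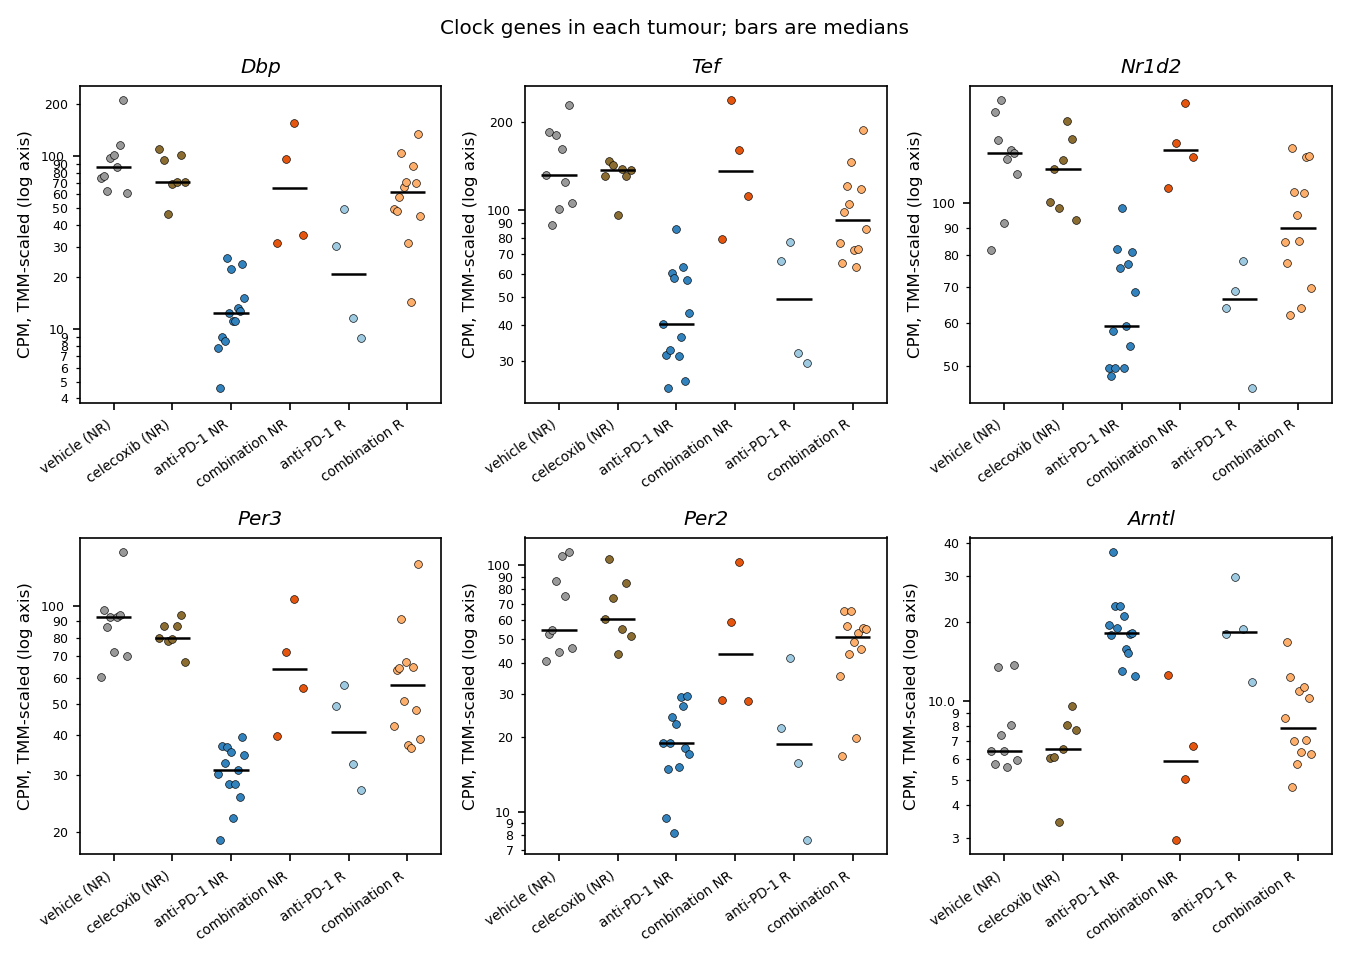
TMM-scaled CPM (log axis) of 6 clock genes in each of the 49 tumours by treatment and response label, with a bar at each group's median. Dbp, Nr1d2 and Per3 are higher in all 4 combination NR tumours than in all 13 anti-PD-1 NR tumours, and the vehicle and celecoxib tumours lie near the combination NR tumours.

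The activator gene Arntl lay in the opposite direction but did not pass. It was at 12.5, 2.95, 5.05 and 6.70 CPM with the combination and at 12.5, 18.1 and 37.1 as the lowest, median and highest values with anti-PD-1. Its log2 fold change was -1.51 ± 0.32 (SE, n = 4 and 13, edgeR adjusted p 0.0614), and 1 of the 52 pairs of tumours had the combination tumour higher. Per2 was at 28.3, 58.7, 103 and 28 CPM against 8.21, 19 and 29.4, with a log2 fold change of 1.48 ± 0.32 and an edgeR adjusted p of 0.0665 (n = 4 and 13). Replicates 2 and 3 stood well above the anti-PD-1 tumours in Per2, and replicates 1 and 4 lay inside their range. DESeq2 called both genes, with adjusted p of 0.000789 for Arntl and 0.0161 for Per2 (n = 4 and 13).

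Of the 22 genes on the clock list, 20 were tested, 4 rose and 0 fell, 14 had a positive log2 fold change, and their median was 0.36 against -0.03 over all genes. Over all tested genes, 0.0281% passed and 45.8% were positive. The list was chosen with earlier results of these data known, so its counts add no separate support. Without combination replicate 3 the median was 0.20. The tested members that did not pass gave log2 fold changes of 1.09 for Per1, 0.93 for Nr1d1, 1.07 for Hlf and 1.02 for Ciart. The value of Hlf was 0.12 without combination replicate 3. Nfil3, the D-box repressor, was at 9.27, 6.88, 8.76 and 12.2 CPM against a median of 23.1 with anti-PD-1, a log2 fold change of -1.21 (edgeR adjusted p 0.613, n = 4 and 13). Cry1, Cry2, Clock, Bhlhe40 and Bhlhe41 had log2 fold changes of -0.23, 0.33, 0.22, -0.14 and 0.40, each with a 95% interval that held 0. The value of Clock was thus on the other side of 0 from that of its partner Arntl, and it was negative without combination replicate 1.

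The level of Dbp in the groups without antibody was near that of the combination tumours. Its median was 86.2 CPM in vehicle tumours, with a range of 61.3 to 209, and 71.3 CPM in celecoxib tumours, with a range of 46.3 to 110. In R tumours the median was 20.9 CPM with anti-PD-1 and 62 CPM with the combination. In order of median, vehicle and celecoxib tumours overlapped each other, the combination NR and R tumours overlapped both, and the anti-PD-1 NR tumours were lowest. The 2 anti-PD-1 groups also overlapped each other. Arntl had medians of 6.46 CPM in vehicle, 6.57 in celecoxib, 18.4 in anti-PD-1 R and 7.86 in combination R tumours. The part of collection time in these values was not tested.

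Whether the clock difference was particular to NR tumours was tested as the difference between the NR and the R comparisons. For Dbp that difference was 1.15 log2 units (95% interval 0.01 to 2.29, edgeR adjusted p 0.999), since combination R tumours exceeded anti-PD-1 R tumours by 1.38 ± 0.45 (SE, n = 12 and 4). The corresponding differences were 0.72 for Tef, 0.42 for Nr1d2 and 0.57 for Per3, none past the threshold. Over all genes, the effect of the combination over anti-PD-1 differed between NR and R tumours in 0 of 14247 (0%). An unadjusted p under 0.05 was seen in 329. Limma-voom called 0 genes for this difference in effect and DESeq2 called 2. NR tumours were not compared directly with R tumours.

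**Figure D3:**
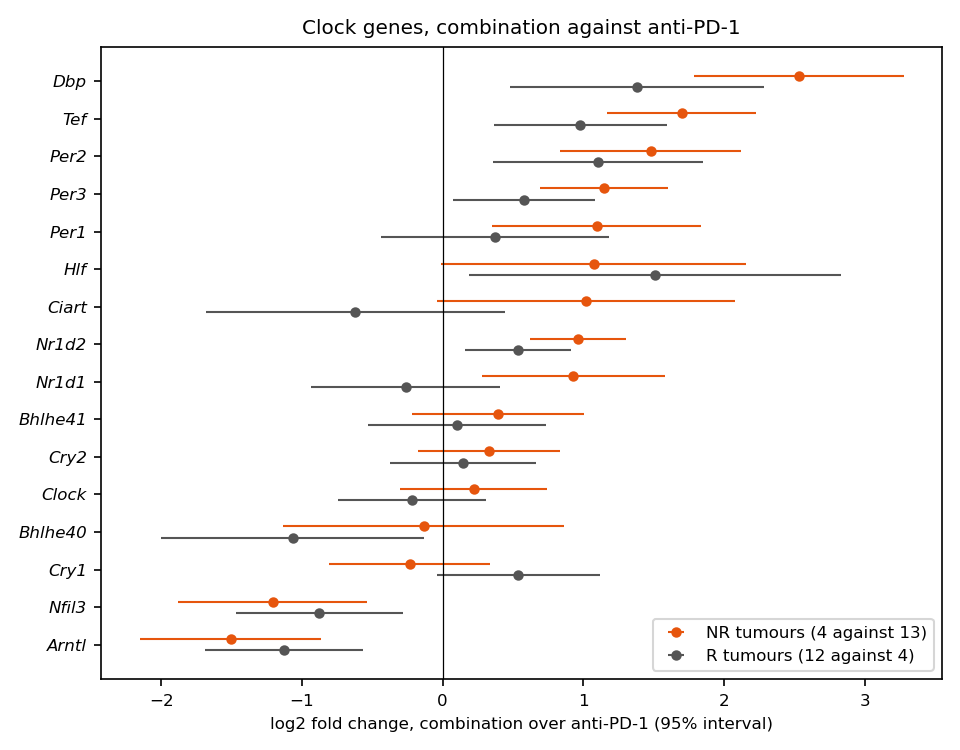
Log2 fold change of the combination over anti-PD-1 with its 95% interval for 16 clock genes, in NR tumours (4 against 13, orange) and R tumours (12 against 4, grey). Dbp is at 2.53 and 1.38, and Arntl at -1.51 and -1.13, with intervals that overlap for each gene.

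Celecoxib against vehicle, both labelled NR, gives a comparison of celecoxib without antibody. The layout is not balanced, because the antibody groups were restricted by response and the other 2 were not. The restriction left out 12 combination and 4 anti-PD-1 tumours labelled R. A difference between the 2 comparisons can therefore reflect this selection as well as celecoxib. Dbp differed between them by 2.82 log2 units (95% interval 1.76 to 3.89, edgeR adjusted p 0.0391). Celecoxib tumours were at -0.29 ± 0.36 (SE, n = 7 and 9) relative to vehicle. It was the only gene of 14247 past the threshold, or 0.00702%, and 454 had an unadjusted p below 0.05. The number was 12 with DESeq2 and 0 with limma-voom. The count was also 0 without the libraries with other tissue, with no filter on low counts, and without combination replicate 2 or 3. For Tef the difference was 1.84 (edgeR adjusted p 0.0659, n = 4, 13, 7 and 9) and for Arntl -1.26 (0.989).

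The number of calls changed when any of the 4 combination tumours was left out. Leaving out combination replicate 2 left 1 call, Dbp, and leaving out replicate 3 left 1 call, Tef. Over all fits without 1 tumour the lowest log2 fold change was 1.98 for Dbp, 1.38 for Tef, 0.87 for Nr1d2 and 0.86 for Per3. Without replicate 1 there were 6 calls, and without replicate 4 there were 7. Leaving out any single anti-PD-1 tumour gave 4 to 6 calls, among them all 4 genes in each case. Without the libraries with other tissue the same 4 genes were called.

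Complete separation of the groups, in either direction, was seen in 22 genes. All 4 combination values lay above all 13 anti-PD-1 values in 8 genes (0.0562% of those tested) and below them in 14 (0.0983%). Some genes separate in this way by chance, and their number was not worked out, so separation alone marks no gene as changed. Besides Dbp, Nr1d2 and Per3, the higher genes were Fbxl20, Apbb1ip, Sprtn, Clcn1 and Casp12, named here after their values were seen. Fbxl20, an F-box protein gene, was at 15.5, 17.7, 17.4 and 15.5 CPM against 6.63, 9.98 and 13.9 as the lowest, median and highest values, a log2 fold change of 0.74 ± 0.20 (SE, n = 4 and 13, edgeR adjusted p 0.585). Apbb1ip encodes RIAM, an adaptor for integrin activation, and was at 172, 205, 186 and 182 CPM against 109, 150 and 170. Its shift was small, at 0.36 log2 units.

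Spon2, a secreted matrix protein, was the most separated of the lower genes by p. It was at 49.2, 38.5, 29.5 and 36.1 CPM against 60.3, 74.2 and 120, a log2 fold change of -1.08 ± 0.27 (SE, n = 4 and 13, edgeR adjusted p 0.537). A fit of the 17 tumours alone called it, with an adjusted p of 0.0186, as did DESeq2, with 0.033. Polg, the catalytic subunit of the mitochondrial DNA polymerase, was at 24.8, 26.2, 28.5 and 33.4 CPM against 34.1, 39.6 and 52, or -0.53 log2 units (edgeR adjusted p 0.537, n = 4 and 13). Others of the 14, named after their values were seen, were Htra1, a secreted serine protease (-0.70), Fbn2, an extracellular matrix fibrillin (-3.09, at 0.131 to 0.515 CPM with the combination), Itga7, a laminin receptor subunit (-1.28), and Foxs1, a pericyte transcription factor (-1.16). None passed the adjusted threshold. The other low-p genes named by rule did not pass either: Bbs4 was at 0.57 and Zfp763 at 0.86, and Carnmt1 was at -1.48, Lactb at -0.64, Ccdc74a at -1.24, Glipr2 at -0.74, Angptl4 at -0.92 and Med24 at -0.74 on the log2 scale.

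The prostaglandin pathway is the target of celecoxib. Of 23 listed genes of synthesis, transport and reception, 19 were tested, 0 rose and 0 fell, 6 were positive, and the median log2 fold change was -0.11. Ptgs2, which encodes cyclooxygenase-2, was at 6.92, 1.64, 5.05 and 10.8 CPM with the combination and at 4.71, 7.76 and 33.7 as the lowest, median and highest values with anti-PD-1. The groups overlapped, and its log2 fold change was -1.08 with a 95% interval from -2.49 to 0.32. Ptgs1, the constitutive isoform, was at 0.26, and Ptges, the inducible terminal synthase of prostaglandin E2, at -0.22. Pla2g4a, the phospholipase that releases arachidonic acid, was at 49.7, 33.3, 57.3 and 44.4 CPM against a median of 33.3. Its log2 fold change was 0.43 (95% interval 0.09 to 0.78, edgeR adjusted p 0.85, n = 4 and 13), and the exact permutation p was 0.02941, unadjusted. The same permutation test gave 0.1252 for Ptgs2, 0.09496 for Ptger2 and 0.1824 for Ptger4. Of the E2 receptor genes, Ptger2 was at -1.15 and Ptger4 at 0.48, with intervals that held 0. Ptger2 had few counts, at 0.148 to 1.34 CPM with the combination. Hpgds, the synthase of prostaglandin D2, was at 0.36, and Ptgis, that of prostacyclin, at -0.48.

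A list of tumour-promoting inflammatory mediators was lower in value with the combination. Of 30 genes, 24 were tested and 0 passed in either direction, but 22 were negative, with a median of -0.58. The list mean was 3.13, 2.51, 2.84 and 3.21 log2 CPM in combination replicates 1 to 4, against 3.21, 3.43 and 3.89 as the lowest, median and highest values with anti-PD-1. Replicates 1, 2 and 3 lay below all 13, and replicate 4 was level with the lowest. Il1b, the cytokine interleukin-1β, was at 14.4, 8.52, 9.05 and 29.6 CPM against 12.3, 25.5 and 64.5, a log2 fold change of -0.89 (95% interval -1.81 to 0.02). Its exact permutation p was 0.03697, unadjusted, and its edgeR adjusted p was 0.85 (n = 4 and 13). The neutrophil-attracting chemokines Cxcl1, Cxcl2 and Cxcl5 were at -0.86, -1.35 and -0.86 log2 units. Il1r2, a decoy receptor for interleukin-1, was at -1.06, Il1rn, the receptor antagonist, at -0.60, Arg1, which consumes arginine in myeloid cells, at -0.80, and Nos2, inducible nitric oxide synthase, at -1.64. Cxcl2 and Nos2 had few counts, at 0.155 to 2.66 and 0.310 to 1.05 CPM of the library total with the combination. Csf1, the macrophage growth factor, was at 0.04.

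Neutrophil markers were low and lower in value with the combination. Of 18, 11 were tested, none passed, and 1 was positive, with a median of -0.56. The list mean was 1.01, 1.18, 0.80 and 1.34 log2 CPM, against a lowest value of 1.05 and a median of 1.53. Mmp8, a granule collagenase, was at 0.261, 0.164, 0.297 and 0 CPM, close to the detection limit. Without combination replicate 4 the median of the neutrophil list was -0.91.

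**Figure D4:**
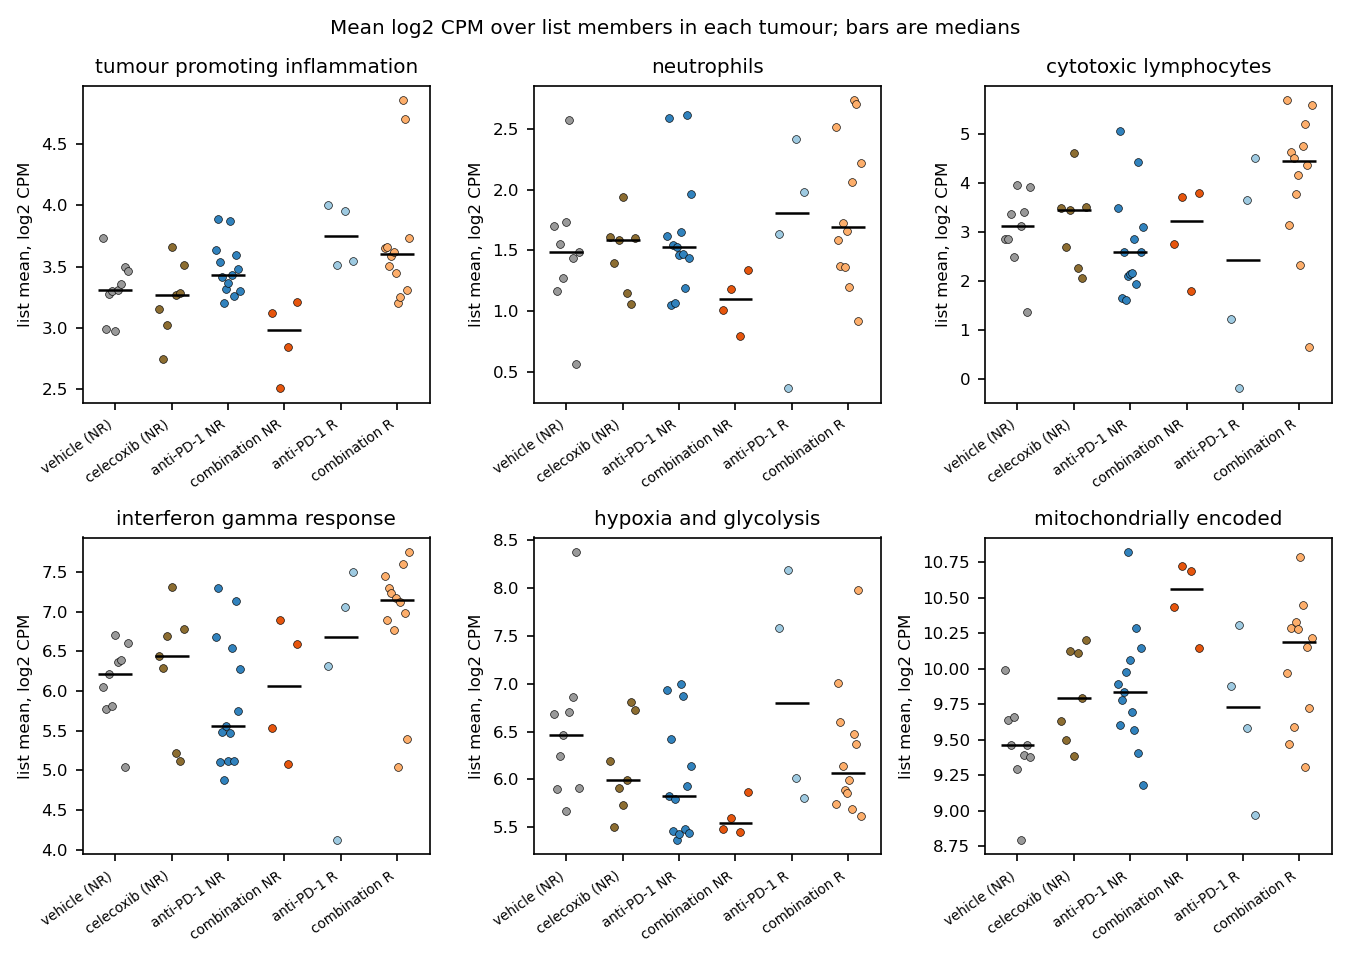
Mean log2 CPM over the tested members of 6 gene lists in each of the 49 tumours, by treatment and response label, with a bar at each group's median. The inflammation list has its lowest median in combination NR tumours, while the cytotoxic and interferon gamma lists spread widely within each antibody group.

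No T cell gene passed the threshold, which 0.0281% of all tested genes did. Of 24 T cell genes tested, 0 rose and 0 fell, 9 were positive, and the median was -0.13. Over fits without 1 combination tumour this median ranged from -0.31 to 0.10. The T cell list mean was 1.69, 2.47, 1.21 and 2.59 log2 CPM in combination replicates 1 to 4. The lowest, median and highest anti-PD-1 values were 0.75, 1.58 and 3.87. Its average was 0.14 higher with the combination, the other way from the median fold change. Cd8a, which marks cytotoxic T cells, was at 1.31, 10.3, 0 and 16.9 CPM with the combination, against 0.164, 1.41 and 45.7 as the lowest, median and highest values with anti-PD-1. Combination replicates 2 and 4 were the high ones, and the fold change of -0.11 log2 units had a 95% interval from -2.22 to 2.00. That interval spans large changes both ways, so a difference was not detectable in this number of tumours. Cd3e, a subunit of the T cell receptor complex, was at 0.21 with an interval from -1.15 to 1.57.

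The cytotoxic list had 9 positive members of 19 tested, a median of -0.07 and 0 genes past the threshold. Its list mean was on average 0.27 log2 CPM higher with the combination. Gzmb, granzyme B, was at 10.7, 13.3, 7.27 and 13.4 CPM against a median of 10.3, and Prf1, perforin, at 0.653, 2.95, 0 and 3.61 CPM against a median of 0.773. Ifng was at 2.48, 6.23, 0.89 and 9.17 CPM against 1.44, a log2 fold change of -0.07 with an interval from -1.90 to 1.76. For Ifng, 2 of the 13 anti-PD-1 tumours lay above the highest combination tumour and 3 below the lowest. Xcl1, a chemokine that recruits cross-presenting dendritic cells, was at 1.12 log2 units, and Ctsw, a cathepsin of cytotoxic lymphocytes, at 0.78, both without passing. Tcf7, a transcription factor of memory-like T cells, was at -0.81. The receptor gene Pdcd1 was at -0.58 with a 95% interval from -2.67 to 1.51, and at -2.01 without combination replicate 4. Ctla4 was at -0.96 with an interval from -2.16 to 0.24, and Foxp3, which defines regulatory T cells, was at 0.59 with an interval from -0.45 to 1.62.

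The interferon gamma response list was split evenly, with 19 of 35 members positive, a median of 0.06 and 0 called. The list mean was 5.53, 6.90, 5.08 and 6.59 log2 CPM in combination replicates 1 to 4, so replicates 2 and 4 were high as in the T cell genes. Cxcl9, the chemokine that attracts CXCR3-bearing T cells, was at 170, 519, 59.4 and 450 CPM against 39.7, 141 and 825. Cd274, which encodes PD-L1, was at 15.1, 66, 11.1 and 49.1 CPM against 5.75, 16 and 73.3, and Socs1, a feedback inhibitor, was at 0.76 log2 units. The type I interferon list had a median of -0.07, MHC class I 0.10 and MHC class II -0.18. H2-D1, a class I gene, was at 0.21 log2 units, and Oas2, an antiviral enzyme, at -0.56.

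The Dbp order of the combination tumours was not the order of their T cell values. Replicates 2 and 3 were highest in Dbp, whereas replicate 3 had the lowest T cell, cytotoxic and interferon gamma list means of the 4, at 1.21, 1.81 and 5.08 log2 CPM. Replicate 4, with Dbp close to the lowest of the 4, had the highest T cell and cytotoxic means, at 2.59 and 3.81. In the 4 anti-PD-1 R tumours the orders of Dbp and the T cell mean were opposite. Their T cell means were 1.07, -0.64, 2.23 and 3.03 log2 CPM in replicates 1 to 4, and Dbp was at 30.1, 49.4, 11.7 and 8.86 CPM. That opposite order did not hold throughout the larger antibody groups. Among the 13 anti-PD-1 NR tumours, replicate 2 had the lowest Dbp and the highest T cell mean, 3.87. Replicate 3 had the lowest T cell mean, 0.75, with Dbp below the group's median. Among the 12 combination R tumours, replicate 11 had the highest Dbp, 133 CPM, and the lowest T cell mean, -0.109. Replicate 9 had Dbp at 87.7 CPM with a T cell mean of 4.02. A relation of Dbp to T cell content was not tested.

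Other immune lists held no calls. Macrophage genes had 12 of 23 members positive with a median of 0.05, and Maf and Trem2 were at 0.28 and 0.34 log2 units. The B cell list had 5 of 6 tested members positive and a median of 0.25, led by Ly86 at 0.81 and Cd180 at 0.67, which myeloid cells also express. The lists of natural killer cells, conventional dendritic cells and plasma cells had medians of -0.07, -0.13 and -0.20. Mature dendritic cells had 10 of 12 members negative and a median of -0.34, which ranged from -0.47 to -0.21 over fits without 1 combination tumour.

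Stromal lists were mostly negative in value. The endothelial list had 17 of 20 members negative with a median of -0.45, and the pericyte list 9 of 10 with a median of -0.60. Robo4, a receptor of vessel stability, was at 7.05, 5.41, 3.26 and 9.48 CPM against a median of 11.8, and Vwf, von Willebrand factor, was at -1.48 log2 units. Foxs1 was at 3.13, 1.97, 3.86 and 3.09 CPM, below the lowest anti-PD-1 value of 4.56, and Notch3, a receptor of mural cells, was at -1.0. Fibroblast genes had a median of -0.18 with 19 of 21 negative, and Pi16 was at -1.56. Among matrix proteases, 15 of 21 were negative, with Mmp19 at -0.74 and Adam12 at -0.94. The skeletal muscle and fat lists also had negative medians, of -1.11 and -1.20, in the comparison, and their part in the stromal values was not tested. Without the 12 libraries with other tissue the endothelial median was -0.20 and the muscle median 1.59. Without combination replicate 4 the endothelial median was -0.29, and without replicate 1 the muscle median was -3.38.

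Hypoxia and glycolysis genes showed 24 of 26 members negative, a median of -0.57 and no call. Ldha, lactate dehydrogenase A, was at 482, 410, 415 and 664 CPM against 471, 846 and 1434, a log2 fold change of -0.82 (95% interval -1.55 to -0.08, edgeR adjusted p 0.85, n = 4 and 13). Angptl4, a lipoprotein lipase inhibitor induced by low oxygen, was at 54.6, 46.2, 62.9 and 51.2 CPM against 33.8, 110 and 151, and 11 of the 13 anti-PD-1 tumours lay above the highest combination tumour. The list means of the combination tumours, from 5.45 to 5.87 log2 CPM, lay inside the anti-PD-1 range of 5.37 to 7.00.

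Mitochondrially encoded transcripts were higher in value. Of 13 listed, 7 were tested and all 7 were positive, with a median of 0.56 and no call. The list is incomplete, since mt-Co2, mt-Co3, mt-Atp6, mt-Atp8 and mt-Nd4l had no count in any of the 17 libraries. Why they were missing was not tested. The transcript mt-Nd5, which encodes part of complex I, was at 1023, 933, 1235 and 610 CPM against 318, 474 and 997, a log2 fold change of 0.94 ± 0.26 (SE, n = 4 and 13, edgeR adjusted p 0.613). Replicates 1 and 3 exceeded all anti-PD-1 tumours. The complex I transcripts mt-Nd2, mt-Nd4 and mt-Nd6 were at 0.93, 0.58 and 0.54, mt-Co1 of complex IV at 0.56, mt-Cytb of complex III at 0.27 and mt-Nd1 at 0.04, so members differed in value. Capture of these transcripts by a 3′ kit depends on their poly(A) tails.

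The remaining lists held no call either. Glucocorticoid receptor targets had 5 of 15 members positive and a median of -0.10, with members from -1.05 to 1.09. Per1, also on the clock list, was the highest at 1.09, while Fkbp5 was at 0.03 and Tsc22d3 at 0.17. Such targets respond to corticosterone, which has its own daily rhythm, and its part in these values was not tested. Heat shock genes had 12 of 14 negative and a median of -0.40, with Dnaja1 at -0.43 and Hsp90aa1 at -0.49, and their median was -0.62 without combination replicate 4. Proliferation genes had 14 of 26 positive and a median of 0.03, with Mki67 and Top2a both at 0.29. In cholesterol synthesis, 11 of 17 were positive with a median of 0.19, led by Insig1, a sterol-sensing regulator, at 1.16. Without combination replicate 4 that median was 0.01. The carcinoma list had 11 of 12 negative members and a median of -0.51, with Krt18 at -0.83 and Phlda1 at -0.55, and its median was -0.24 without the libraries with other tissue.

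**Figure D5:**
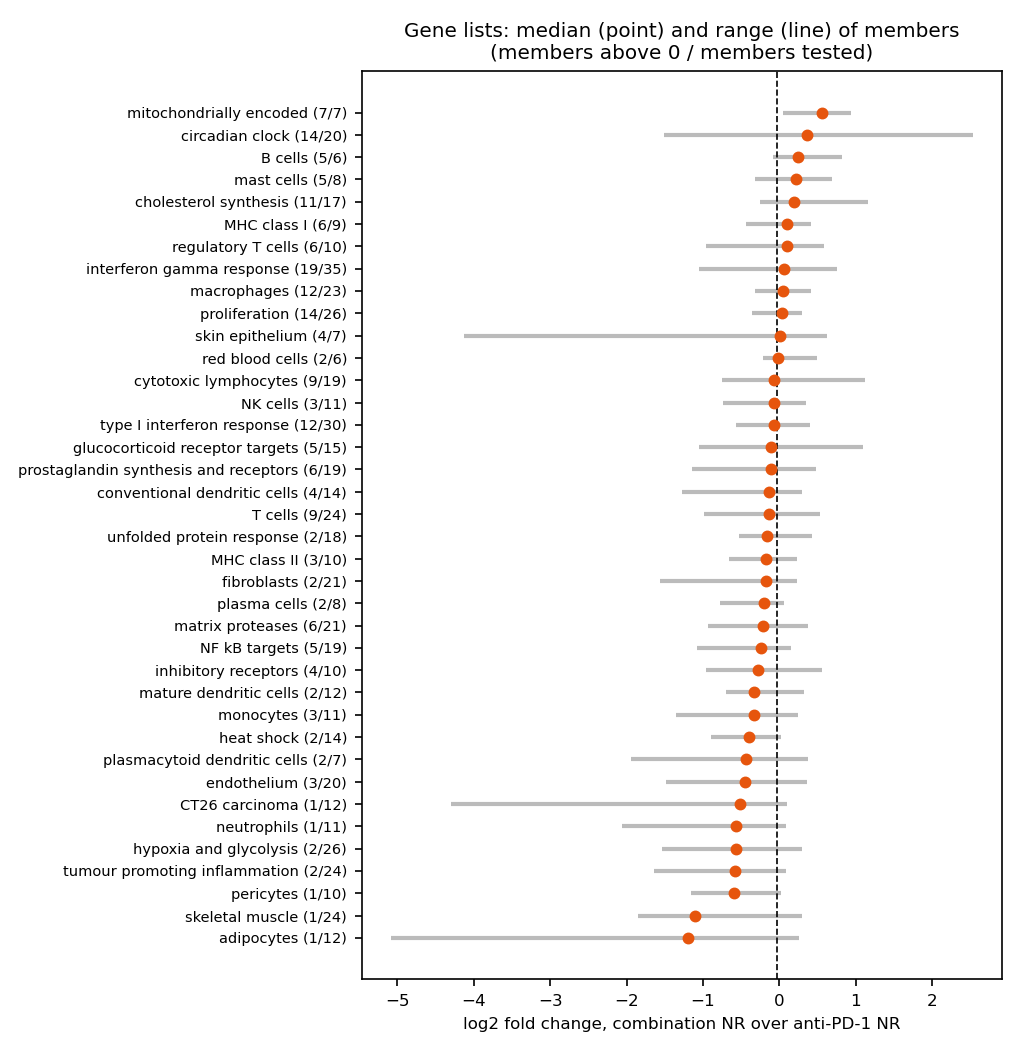
Median (point) and range (line) of the members' log2 fold change, combination over anti-PD-1 among NR tumours, for 38 gene lists, with the number of positive and tested members and a dashed line at the median of all genes, -0.03. Mitochondrially encoded and clock genes have the highest medians, at 0.56 and 0.36, and fat and muscle genes the lowest, at -1.20 and -1.11.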

How the data were processed

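The authors deposited raw counts per gene. Per the submitters' processing notes the tools were bcl2fastq, STAR, featureCounts and limma with builds mm10 and GRCm38, and per the labels' protocols the libraries were QuantSeq 3′ FWD made from 500 ng of total RNA. Strand and multimapping settings were not stated, so counts of near-identical genes are uncertain. From the 39179 genes, edgeR 4.0.16 (R 4.3.3) kept 14247 by filterByExpr. One quasi-likelihood fit with TMM factors covered 49 libraries in 6 groups, with 43 residual degrees of freedom, Benjamini-Hochberg adjustment over all tested genes, a threshold of 0.05 and a prior count of 2 for log2 CPM. DESeq2 1.42.0 and limma 3.58.1 (voom) were alternatives. The code was tested on simulated data.

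Members, lists and tests were chosen with earlier results of these data known. Named genes were up to 12 per direction by fold among called genes with a mean of at least 2 CPM, filled to 24 by smallest p, then 2 genes per list by smallest p (38 lists), and a panel. Members of the lists described in detail were added after seeing the data. A few genes picked by this rule are left out. Limits for other tissue were a muscle list mean over 3, or skin or fat over 5, log2 CPM. A shorter D-box motif was added after the promoters were read.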

Additional observations from a re-analysis of the deposited data

Results flagged for a closer look

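Dbp differed between the combination effect among NR tumours and the effect of celecoxib against vehicle, by 2.82 log2 units (edgeR adjusted p 0.0391, n = 4, 13, 7 and 9).

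Among 101 genes and 38 lists examined in the 4 combination tumours, 8 genes and 3 lists had 1 tumour far from the other 3. Chance flags about 1 in 20 groups. Replicate 3 was high in Hlf, at 3.22 log2 CPM against 1.05 to 1.15. Replicate 2 was high in Clcn1, at 2.12 against 1.05 to 1.22, and low in Trem2, at 3.61 against 4.75 to 4.89. Replicate 1 was high in Mylpf, a muscle myosin light chain, at 2.94 against 0.30 to 0.67, and in the muscle list mean, at 2.79 against -0.38 to -0.11. Replicate 4 was high in Fbn2, at -0.39 against -1.39 to -1.27, and in the fat genes Adipoq, at -0.84 against -2.0 in each of the others, and Cfd, at 2.41 against -0.43 to 0.05. The same replicate was low in Csf1, at 6.71 against 7.15 to 7.19, and high in the list means of monocytes, at 4.39 against 3.90 to 3.91, and of heat shock genes, at 6.55 against 6.07 to 6.09.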

How the results depend on the processing

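The count of 4 genes became 13 with DESeq2 (5 higher, 8 lower) and ranged from 1 to 7 when single tumours were left out. It was 4 or 5 under the other 7 alternatives run, and limma-voom kept 3 of the 4 genes, losing Per3. Besides Arntl, Per2 and Spon2, the genes added by DESeq2 included Art1, Ckmt2, Krt33b, Krtap19-9b and Gm10229. The part of other tissue in those calls was not tested. The difference of the combination effect between NR and R tumours gave 2 genes with DESeq2 and 0 otherwise. The difference from celecoxib against vehicle gave 12 genes with DESeq2, 0 with limma-voom, 0 with no filter, 0 without the libraries with other tissue, and 0 to 2 without single tumours. Without single combination tumours, 12 to 90 genes lay above and 28 to 79 below all anti-PD-1 tumours.

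Of 2518 values for 101 genes, 2460 kept their direction and side of the threshold, 7 lost the call, 13 gained it and 38 changed sign. The cause was not tested. The sign changed in 13 genes, all without a call: Cd8a was at 0.0867 and Ifng at 0.80 with limma-voom, Cxcl9 at -0.0105 with the muscle mean as covariate, and Csf1 at -0.0801 and Mylpf at 0.50 without the libraries with other tissue. Without single tumours the log2 ranges were -1.05 to 0.67 (Cd8a), -0.0183 to 0.47 (Cd3e), -0.40 to 0.82 (Prf1), -0.65 to 0.41 (Ifng), -0.35 to 0.38 (Cxcl9), -0.0047 to 0.14 (Csf1), -0.0090 to 0.36 (Clock), -0.24 to 0.0247 (Bhlhe40), -0.0051 to 0.0839 (Fkbp5), -0.14 to 0.35 (Tsc22d3), -0.0179 to 0.0793 (mt-Nd1) and -0.0827 to 0.94 (mt-Nd6).

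No paired analysis was possible because replicate numbers were given in accession order and pair no tumours.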
